A study of Homo sapiens with 9 samples.

Results

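The del-56 clone of LNCaP cells was compared with the WT clone across all protein-coding genes, from 3 libraries of each clone, which are 6 of the 9 RNA-seq libraries of the series. The members are the cultures that the labels name del-56 and WT. LNCaP is an androgen-sensitive human prostate cancer cell line that was established from a lymph node metastasis. Both clones were derived with CRISPR-Cas9: del-56 carries the genotype *EPCART* knockout, a deletion that takes out the promoter together with exons 1 and 2 of the long noncoding RNA gene *EPCART*, and WT is the control clone with a wild-type locus. Every culture was kept in normal medium for 48 hours, with no further treatment, and gave 1 library. The 3 libraries of the other *EPCART*-del clone, del-4, were used only where a value of del-56 was set beside the second deletion clone. Each group is a single clone, so the deletion and any other difference between these clones cannot be told apart, and *EPCART* itself, a noncoding gene, was not analysed here.

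A long noncoding RNA is transcribed and spliced like a messenger RNA but is not known to be translated into protein. *EPCART* was described as an androgen-responsive transcript of prostate cancer cells, and the study asked which genes and pathways change when it is removed. Clones grown from single cells can also differ in stable ways that an edit does not make, such as chromosome copy number or genes that are silent in one clone and active in another.

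Reads on genes numbered 91074556 to 114979407 per del-56 library and 111508198 to 112855731 per WT library. All values are normalized counts, that is read counts divided by 1 size factor per library, and are given as mean ± SD over 3 cultures. Replicate 1 stood apart in both clones, with a chi-square per gene of 21.1 to 25.2 against the other replicates, where replicates 2 and 3 differed by 6.43 in del-56 and 7.0 in WT. The share of reads on the 13 mitochondrially encoded genes was 1.28% ± 0.112 in del-56 and 1.17% ± 0.176 in WT (exact two-sided permutation p = 0.4, smallest possible 0.1). The 10 genes with the most reads took 4.29% ± 0.0659 in del-56 and 3.83% ± 0.132 in WT (exact permutation p = 0.1, the smallest that 3 against 3 can give).

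Both clones carried the luminal markers of LNCaP cells. The luminal keratin gene *KRT8* was at 58147 ± 1988 in del-56 and 58160 ± 2643 in WT (log2FC = 0.00), and *HOXB13* and *FOXA1*, transcription factors of the prostate epithelium, did not pass. Of 11 luminal genes, 3 were higher and 3 lower. None of 4 tested basal markers and none of 5 tested neuroendocrine markers passed, and their summed normalized counts were 20.6 to 53.2 and 156 to 171 in del-56 and 24.5 to 36.7 and 156 to 251 in WT. Of 8 tested fibroblast, endothelial and blood genes, *LUM* (129 against 29.3) and the collagen gene *COL1A1* (1258 against 991) were higher, and *COL3A1* was lower. The sum of these 8 was 2395 to 2801 in del-56 and 2144 to 2246 in WT, and its part in other results was not tested.

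Of 17481 genes tested with limma, 3358 were higher in del-56 (19.2%) and 3580 lower (20.5%) at a Benjamini-Hochberg adjusted p under 0.05. A change of more than 1 on the log2 scale was reached by 381 higher genes (2.18%) and 471 lower genes (2.69%). Among the 10386 genes with a mean of at least 1000, 2617 were higher (25.2%) and 2694 lower (25.9%), but only 48 (0.462%) and 53 (0.51%) passed that size. Without replicate 1 of both clones, the calls among these well-expressed genes numbered 2916 and 2917. The libraries of the clones did not overlap for 6135 of them (59.1%). Most differences in well-expressed genes were thus smaller than 1 on the log2 scale. The plot of fold change against level shows a narrow band of small changes, with a handful of abundant genes far below it.

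**Figure D1:**
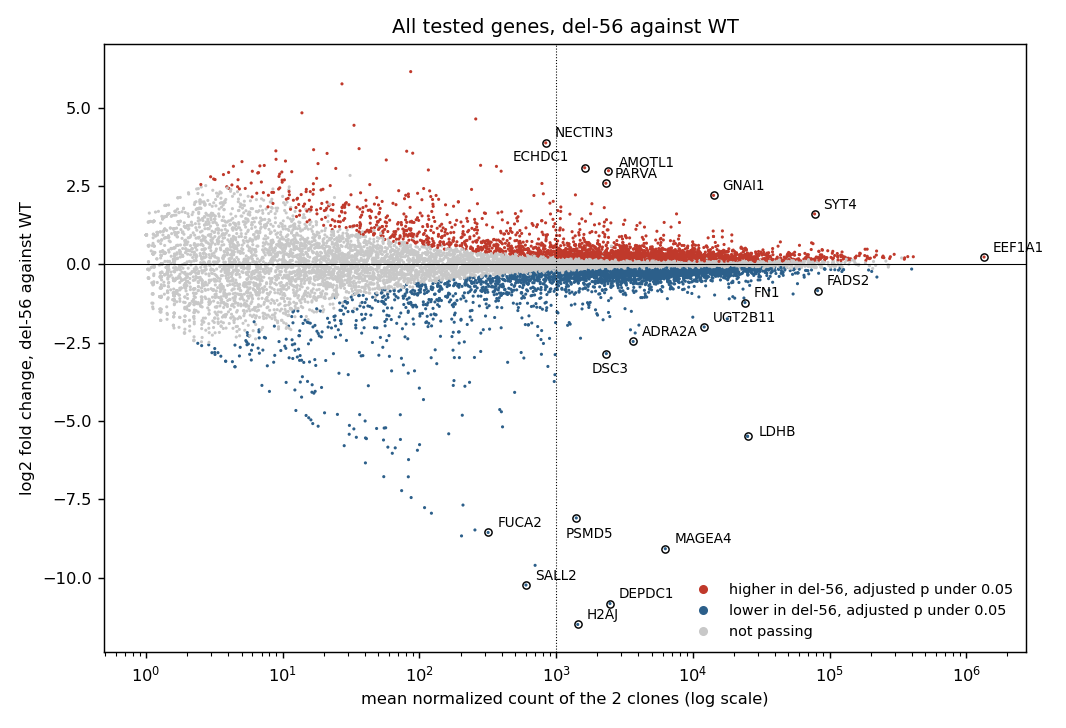
Log2 fold change of del-56 against WT (y axis) against the mean normalized count of both clones (x axis, log scale), 1 point per gene of 17481 tested. Red points are higher and blue points lower at an adjusted p under 0.05, and the dotted line marks a mean of 1000. *H2AJ*, *DEPDC1*, *MAGEA4*, *PSMD5* and *LDHB* lie below -5, while no gene right of the line rises above 3.08.

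The deepest falls among well-expressed genes were in *H2AJ*, *DEPDC1*, *MAGEA4*, *PSMD5* and *LDHB*. *DEPDC1* (1:68474152-68497221, GRCh38, minus strand), a gene linked to mitotic progression, had normalized counts of 1.91, 6.02 and 0 in del-56 and 4998, 5045 and 4792 in WT. These were 2, 6 and 0 reads in the 3 del-56 cultures, so the transcript was close to the limit of counting in del-56 while it was plentiful in every WT culture. The log2FC was -10.82 (SE 0.46, adjusted p = 4.3e-11). Since del-56 is near 0, the fitted size moved with the setting, to -9.42 with a pseudocount of 5, -11.50 without del-56 replicate 2 and -10.10 without del-56 replicate 3. In del-4 the gene was still read at 3257 ± 155, and del-56 against del-4 gave -10.22 (adjusted p = 1.7e-11).

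*PSMD5* (9:120815496-120842951, minus strand) encodes a chaperone that helps to assemble the regulatory particle of the proteasome. Its normalized counts were 13.4, 6.02 and 9.70 in del-56 against 2787, 2771 and 2832 in WT. No WT culture came near any del-56 culture, and the log2FC was -8.09 (SE 0.23, adjusted p = 3.1e-13). The del-4 clone kept the gene at 3172 ± 266, so that del-56 was lower than del-4 by a similar amount (-8.27, adjusted p = 2.2e-14).

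*LDHB* (12:21635342-21757857, minus strand) encodes the B subunit of lactate dehydrogenase, the enzyme that interconverts pyruvate and lactate. It was read at 1072, 1064 and 1152 in del-56 and at 51306, 49048 and 46991 in WT. Unlike the genes above, it was reduced to a low but clearly counted level in del-56 (log2FC = -5.48, SE 0.045, adjusted p = 1.2e-20). In del-4 it lay between, at 18877 ± 722 (del-56 against del-4 -4.11, adjusted p = 4e-20). An unnamed gene model overlaps *LDHB* and shares its reads, and was counted apart from it. *LDHA*, the A subunit, was at 91976, 94159 and 97312 in del-56 and 79925, 75982 and 73642 in WT, a rise of 0.30 (SE 0.044, adjusted p = 4.2e-05).

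The start regions of *DEPDC1*, *PSMD5* and *LDHB* are shown because these are abundant genes that were almost or largely lost in del-56, while del-4 held *DEPDC1* at 3257, *PSMD5* at 3172 and *LDHB* at 18877. Each is the RefSeq promoter window of GRCh38.p14, 250 bases before to 50 after the gene's start on its own strand, written 5′ to 3′, with every CG dinucleotide, the usual target of DNA methylation, in capitals. The windows lie at chr1:68497033-68497332, chr9:120842873-120843172 and chr12:21657793-21658092, all on the minus strand, the last inside the longer span of the gene given above.
DEPDC1: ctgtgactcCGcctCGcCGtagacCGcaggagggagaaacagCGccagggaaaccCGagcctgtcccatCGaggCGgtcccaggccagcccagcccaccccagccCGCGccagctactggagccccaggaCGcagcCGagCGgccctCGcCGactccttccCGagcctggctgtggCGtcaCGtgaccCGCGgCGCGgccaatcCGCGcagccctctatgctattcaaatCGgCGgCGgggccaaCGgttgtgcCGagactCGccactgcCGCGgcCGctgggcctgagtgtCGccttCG
PSMD5: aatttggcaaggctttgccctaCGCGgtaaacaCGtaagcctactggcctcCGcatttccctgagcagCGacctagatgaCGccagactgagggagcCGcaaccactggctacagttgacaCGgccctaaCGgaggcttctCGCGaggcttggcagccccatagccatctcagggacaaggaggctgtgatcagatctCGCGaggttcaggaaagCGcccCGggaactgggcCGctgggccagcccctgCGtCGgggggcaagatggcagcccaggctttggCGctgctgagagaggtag
LDHB: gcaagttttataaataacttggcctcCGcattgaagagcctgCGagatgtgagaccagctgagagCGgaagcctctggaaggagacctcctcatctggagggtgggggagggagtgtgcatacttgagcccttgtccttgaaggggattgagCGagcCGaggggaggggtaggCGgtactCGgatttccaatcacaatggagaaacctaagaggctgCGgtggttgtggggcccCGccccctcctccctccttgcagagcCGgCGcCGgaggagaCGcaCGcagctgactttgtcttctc
The *DEPDC1* window holds 35 CG, the *PSMD5* window 19 and the *LDHB* window 14. Over the windows of 13468 tested genes the median was 24 and the quartiles 13 and 33, so *DEPDC1* lay in the range above the upper quartile and the other two within the middle range. DNA methylation was not measured in these libraries.

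Most of the neighbouring genes compared changed little or rose, but several lay far away. Distances are between gene spans and not from the start windows. Around *PSMD5*, *FBXW2* changed by 0.12 and *B3GALT9* by 0.02 on the log2 scale, and *PHF19*, which lies 12700 bases away, was higher by 0.36. Around *DEPDC1*, *WLS*, 241032 bases away, was higher by 0.86. On the start side of *DEPDC1* the nearest gene compared, *LRRC7*, lay 1070701 bases away and differed by -0.03 (adjusted p = 0.80). *RPE65*, 24198 bases from *DEPDC1* on the other side, was higher by 2.39 (adjusted p = 0.016) at low counts, 23.8 in del-56 and 5.99 in WT. Around *LDHB*, *RECQL*, 133673 bases away, was lower by 0.23 on the log2 scale (log2FC = -0.23). *CMAS*, 288361 bases away, differed by -0.07 (adjusted p = 0.18). The nearer *ABCC9*, at 39532 bases and read at only 25.4 in WT, fell to 2.43.

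In all, 12 genes were read at no more than 3 reads in every del-56 library while WT had a mean of at least 100, and no gene met the reverse rule. *SALL2* (14:21521080-21537216, minus strand), a zinc finger transcription factor, had 0 reads in all 3 del-56 cultures and 1156, 1320 and 1290 reads in the WT cultures. Set against a floor of 3 reads per library, it was at least 379-fold lower. It was the one gene of the 12 that del-4 kept at a mean above 100, at 596 ± 20.5 (del-56 against del-4, adjusted p = 1e-11). The other 11 had del-4 means of 1.28 to 26.0. They were *H2AJ*, a histone H2A variant gene and the most abundant of them in WT (2876 ± 126, at least 907-fold lower in del-56), *HENMT1*, which methylates small RNAs of the germ line (at least 160-fold), *S100A7* (at least 128-fold), *MAGEC1*, *LACC1*, *CCDC122*, *HDX*, *MYOT*, the iron exporter gene *SLC40A1*, *TSPOAP1* and *ITPRIPL2* (at least 34.6-fold). *LACC1* and *CCDC122* overlap on chromosome 13 and were both at 0 reads in del-56. *FUCA2*, which encodes a secreted fucosidase, just missed the rule, with 4, 0 and 0 reads in del-56 against a WT mean of 634 ± 25.2.

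The cancer-testis antigen genes moved in both directions. *MAGEA4*, on chromosome X, had normalized counts of 21.0, 18.1 and 29.1 in del-56 and 12546, 12240 and 12842 in WT (log2FC = -9.07, adjusted p = 1.3e-16), and del-4 was also low at 87.5 ± 25.2. *MAGEC2*, on the same chromosome, stood at 1415, 1265 and 1365 in del-56, 199, 237 and 239 in WT and 273 ± 32.2 in del-4. No del-56 culture overlapped either of the other clones, and the rise was 2.58 against WT and 2.30 against del-4 (adjusted p = 4.2e-11 and 3.7e-11). *MAGEC1*, its neighbour at a distance of 292968 bases, was at 0 reads in del-56. Of 23 tested members of the list, 2 were higher and 8 lower, with a median log2FC of -0.23, and 2 and 8 of 22 without chromosomes 1, 2, 13 and 16. Reads of near-identical MAGE genes may have been split between copies.

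Further falls of more than 1.9 on the log2 scale were seen in genes of cell adhesion, receptors and conjugation. *ADRA2A*, the alpha-2A adrenergic receptor, was at 1166, 1112 and 1089 in del-56 and 5874, 6581 and 6118 in WT (log2FC = -2.46, SE 0.056, adjusted p = 3e-14). *SLITRK3*, a transmembrane protein of synapses, was at 1365 ± 167 and 6202 ± 253 (-2.19). *BHLHA15*, a transcription factor of secretory cells also called MIST1, was at 484, 540 and 454 in del-56 and 2495, 2620 and 2448 in WT (-2.36, SE 0.080, adjusted p = 3.1e-12). All 3 were lower in del-56 than in del-4 too, where *BHLHA15* stood at 2517 ± 59.4, close to its WT level. The desmosomal cadherin *DSC3* (567 ± 15.1 against 4088 ± 106, -2.85), the tight junction gene *CLDN3* (1332 ± 122 against 5659 ± 353, -2.09), the steroid glucuronidation gene *UGT2B11* (4856 ± 572 against 19330 ± 797, -2.0) and *LIX1L* (499 ± 29.3 against 1926 ± 110, -1.95) completed the 12 largest falls. For *DSC3*, *CLDN3* and *LIX1L* the difference between del-56 and del-4 did not pass (adjusted p = 0.17, 0.47 and 0.44).

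The 12 largest rises among well-expressed genes ran from 1.61 to 3.08. *ECHDC1*, an enzyme that removes a side product of fatty acid synthesis, was at 2615, 2931 and 3127 in del-56 and 298, 353 and 373 in WT (log2FC = 3.08, SE 0.096, adjusted p = 1.4e-12). *AMOTL1*, an angiomotin family gene whose product binds the coactivator YAP, was at 4142, 4235 and 4481 in del-56 and 532, 581 and 508 in WT (2.99, SE 0.069, adjusted p = 3.1e-14). *PARVA*, a focal adhesion protein that binds integrin-linked kinase, was at 3744, 4051 and 4080 against 592, 745 and 643 (2.59, adjusted p = 1.2e-12). Each of these was several times its WT level in every culture. *SPOCK1*, a secreted proteoglycan, rose by 2.22 and *GNAI1*, an inhibitory G protein subunit, by 2.20, from 5067 ± 301 to 23257 ± 359. The androgen-responsive gene *ADAM7* (1.93), the keratin gene *KRT19* (1.83), *NTNG1*, a netrin-like guidance gene (1.81), *TTR*, the thyroxine carrier transthyretin (1.71), the peptide transporter gene *SLC15A2* (1.69), *RTN1* (1.61) and *MAP2*, a microtubule protein best known from neurons (1.61), made up the rest. Of the 12, *ECHDC1*, *NTNG1*, *TTR*, *RTN1* and *MAP2* differed from del-4 by no more than 0.22.

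Counted in normalized reads rather than in folds, the largest gains were in genes of translation, protein folding and vesicle fusion. *EEF1A1*, the elongation factor that brings tRNA to the ribosome, was at 1446970, 1439450 and 1481140 in del-56 and 1321140, 1214370 and 1184170 in WT. The log2FC was 0.23 (adjusted p = 0.035). Genes were ranked here only if they passed and the groups did not overlap, so neither adds support for *EEF1A1*. The call was lost when WT or del-56 replicate 2 or 3 was left out (adjusted p = 0.10 to 0.15). It was also lost with a pseudocount of 5 and with no filter. Quantile normalization gives the gene with the most reads the same value in every library. The log2FC of 0.00 for *EEF1A1* under that setting was therefore fixed in advance and tests nothing. *EEF2* rose by 0.24 (443739 ± 22486 against 374915 ± 8335), *HSP90AB1* by 0.32 and *PABPC1*, the poly(A) binding protein, by 0.42. *SYT4*, a synaptotagmin of secretory vesicles, had the largest log2FC of these genes, going from 38362 ± 1588 to 116937 ± 867 (1.61, adjusted p = 8.8e-14), and was higher still in del-4 at 146171 ± 4282. Of these, *EEF1A1*, *HSP90AB1* and *PABPC1* have near-identical copies in the genome, so their counts are less certain.

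The largest losses in normalized reads were in *LDHB*, in *HSP90AA1* (190787 ± 5878 against 252689 ± 7876, log2FC = -0.41), in *FADS2*, a desaturase of polyunsaturated fatty acids (58571 ± 893 against 104805 ± 3025, -0.84), in *RPS2*, and in *NONO*. *NONO*, an RNA-binding protein of nuclear paraspeckles on chromosome X, was at 35906, 37648 and 37320 in del-56, 71369, 71352 and 70821 in WT, and 70289, 69306 and 71048 in del-4. The WT and del-4 cultures lay together and every del-56 culture far below them, with -0.95 against WT (SE 0.037, adjusted p = 2.1e-11) and -0.93 against del-4 (adjusted p = 3.6e-12). The ribosomal protein gene *RPS2*, on chromosome 16, was lower by a small amount (log2FC = -0.15, adjusted p = 0.0498), a call that was lost with a pseudocount of 5, with no filter, and when any single library other than del-56 replicate 1 was left out.

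Genes that set del-56 apart from both other clones were looked for by the direct test. Of the 10386 well-expressed genes, 477 were higher and 628 lower in del-56 than in both WT and del-4. Each had an adjusted p under 0.05 in each test, no overlap of libraries and a gene symbol, and genes without a symbol were not counted. Against del-4 alone, 10.2% of well-expressed genes were higher and 13.7% lower, and 9% and 10.9% of all genes tested. Both tests use the same del-56 libraries. The genes with the largest excess over del-4 were *SPOCK1* (1.74), *AMOTL1* (1.51), *TNFRSF19*, *CAMK2N1*, *CD24*, *MCCC2*, *IGF1* (1.16) and *ARHGAP28* (1.09). The genes furthest below it, besides *DEPDC1*, *PSMD5*, *LDHB* and *BHLHA15*, were *IGFBP3*, *MAGEA4*, *ADRA2A* and *SLITRK3*.

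*CD24*, a small surface glycoprotein, was at 5563, 5492 and 5377 in del-56, 2453, 2295 and 2213 in WT, and 2226, 2185 and 2622 in del-4. *TNFRSF19*, a receptor of the TNF receptor family also called TROY, was at 8980, 8739 and 8772 in del-56, 3628, 3461 and 3397 in WT, and 2693, 3725 and 3072 in del-4. For both genes the WT and del-4 cultures lay in 1 range, about 1.2 to 1.5 below del-56 on the log2 scale. *CAMK2N1*, an inhibitor of the kinase CaMKII, was at 28984, 23943 and 23107 in del-56, 13797, 12083 and 13649 in WT and 10735 ± 1139 in del-4 (0.94 against WT, adjusted p = 3e-08). *IGF1*, the insulin-like growth factor, stood at 1392 ± 207 in del-56, 853 ± 65.3 in WT and 617 ± 36.8 in del-4. *IGFBP3*, which binds this factor, stood at 5124 ± 110, 8700 ± 462 and 31274 ± 8539 in the same order. For *IGFBP3* and for *MCCC2*, a subunit of a leucine breakdown enzyme (18514 ± 434 in del-56, 16862 ± 363 in WT, 8134 ± 372 in del-4), del-56 lay nearer to WT than to del-4.

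**Figure D2:**
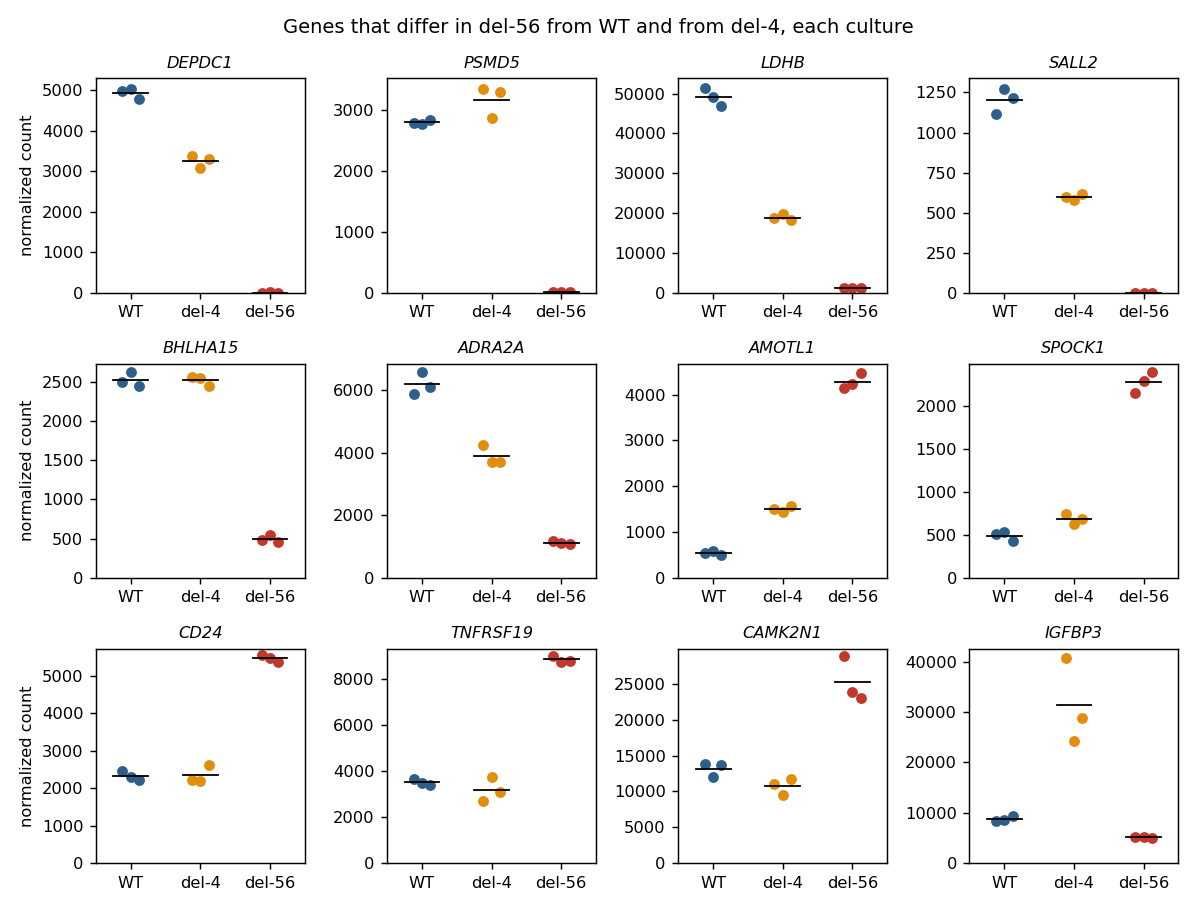
Normalized counts (y axis, linear from 0) of 12 genes in each of the 3 cultures of WT (blue), del-4 (orange) and del-56 (red), with the mean as a black line. The del-56 cultures of *DEPDC1*, *PSMD5* and *SALL2* lie at or near 0. Those of *AMOTL1*, *SPOCK1*, *CD24*, *TNFRSF19* and *CAMK2N1* lie above every culture of the other clones, which was a condition of the rule that picked them.

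Gene lists were compared with the shares over all genes, 19.2% higher and 20.5% lower, or 25.2% and 25.9% among well-expressed genes. Chromosomes 2, 13 and 16 had low medians and chromosome 1 a raised one in del-56, as described at the end. The count against WT of each list that follows is therefore also given without genes on these 4 chromosomes. Without them, all genes gave 19.3% higher and 16.4% lower. Counts against del-4 include all chromosomes. The lists with most members lower were those of DNA replication, cholesterol synthesis, the amino acid response and the endoplasmic reticulum, and those with most members higher were p53 targets, the hypoxia response and glycolysis.

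**Figure D3:**
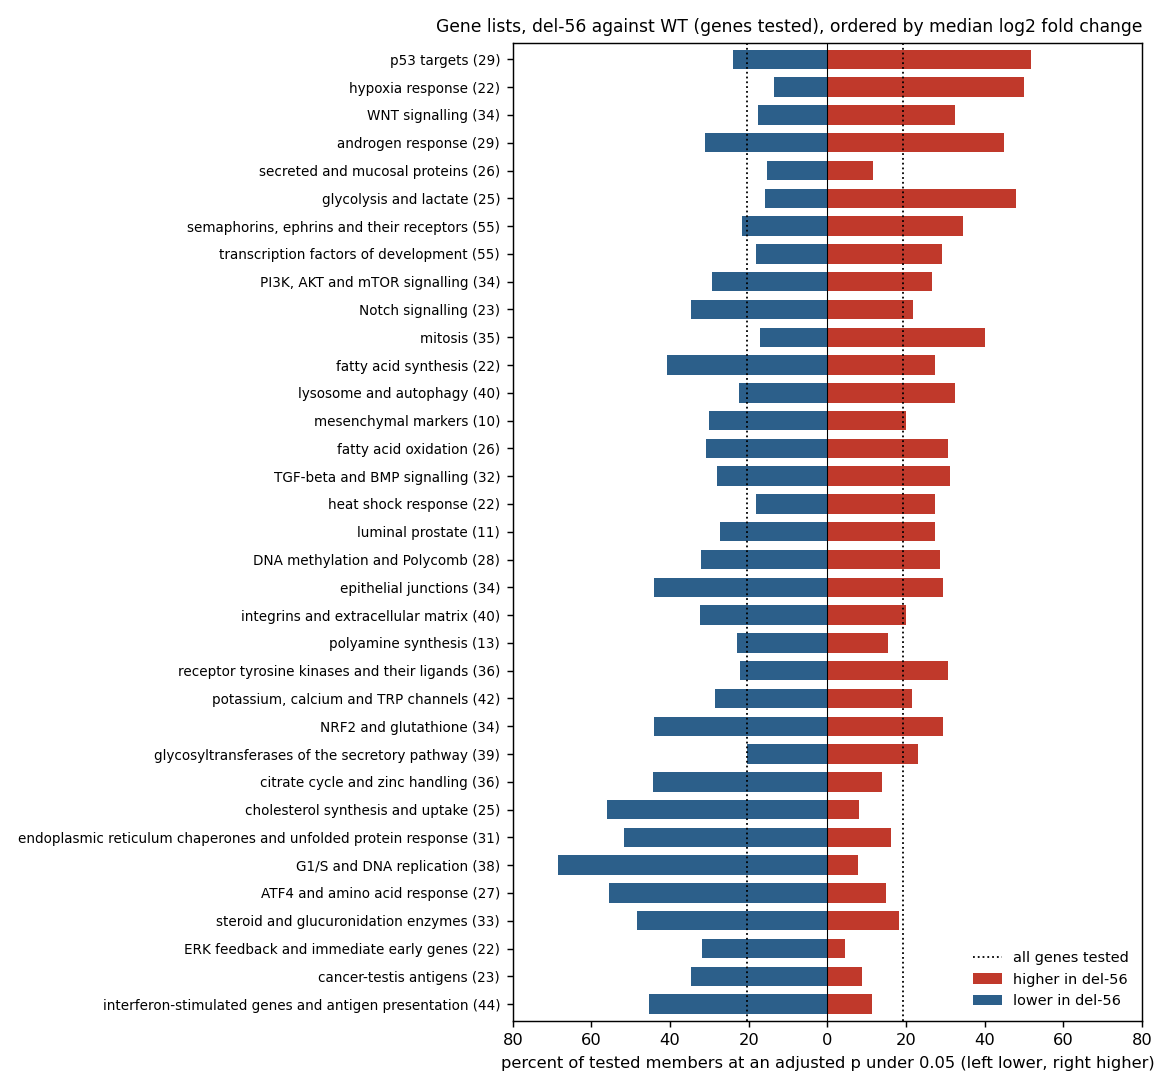
Percent of the tested members of each gene list (number in parentheses) that were lower (blue, to the left) or higher (red, to the right) in del-56 than in WT at an adjusted p under 0.05, ordered by the median log2FC, for lists with at least 10 tested genes. Dotted lines give the shares over all 17481 genes, 20.5% lower and 19.2% higher.

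Genes of the G1/S transition and of DNA replication were lower in del-56. Of 38 members, 26 fell (68.4%), 3 rose, and the median log2FC was -0.16, where the median over all genes was 0.00. The list medians of the single del-56 libraries ran from -0.19 to -0.13 and those of WT from 0.00 to 0.01. All 6 subunits of the MCM helicase, which unwinds DNA, fell, with *MCM5* at 9664 ± 189 against 13173 ± 357 (-0.45, adjusted p = 1.4e-07). The loading factors *ORC6* (3282 ± 224 against 4997 ± 268, -0.61) and *CDT1* (-0.48) and the helicase component *GINS2* (-0.49) fell most, and all 3 lie on chromosome 16. Among enzymes of nucleotide supply, *TK1* fell by 0.46 and *RRM2* by 0.30 on the log2 scale, while *TYMS* rose by 0.13. Without the 4 chromosomes, 19 of 29 fell and 2 rose. Against del-4, 6 members were lower (15.8%, well-expressed genes 13.7%) and 1 higher (well-expressed genes 10.2%). Leaving out 1 library, or rescaling to the same total, changed the number of members that rose to between 0 and 3.

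Mitotic genes showed another pattern, with 14 of 35 higher (40%), 6 lower and a median of 0.06. *TTK*, a kinase of the spindle checkpoint, was at 6556, 6827 and 6744 in del-56 and 4611, 4743 and 4985 in WT (0.49, adjusted p = 2.3e-07). *AURKA*, a spindle kinase (0.43), the motor gene *KIF20A* (0.38), *CDC20* (0.37) and *CCNB1*, cyclin B1 (0.35), rose as well, and *PLK1* and *CENPA* fell. Outside the 4 chromosomes the counts were 11 higher and 1 lower of 25. *CDKN1A*, the cell cycle inhibitor p21, rose by 0.54 in del-56 (15119 ± 269 against 10374 ± 325) and was higher in del-4 (20859 ± 187).

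Of 29 p53 target genes, 15 rose (51.7%) and 7 fell, with a median of 0.17. *TP53INP1* (0.87), *BTG2* (0.57) and *MDM2*, the ubiquitin ligase of p53 (0.50), rose, while *PLK2* (-0.69), *GDF15* and *FAS* fell. Without the 4 chromosomes 11 of 23 rose and 6 fell. The number that fell was 4 without WT replicate 3. Against del-4, 10 members were lower in del-56 (34.5%, all genes 10.9%) and 1 higher (all genes 9%).

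In the list of ATF4 targets and amino acid supply, 15 of 27 members fell (55.6%) and 4 rose, with a median of -0.16. ATF4 is the transcription factor of the amino acid and integrated stress response. *ATF4* itself fell by 0.18 on the log2 scale (28967 ± 1187 against 32779 ± 669, adjusted p = 0.0017), *ATF3* had a log2FC of -0.73 and *PCK2* of -0.37. *SLC7A5*, an importer of large neutral amino acids on chromosome 16, was at 998, 834 and 757 in del-56 and 1453, 1430 and 1591 in WT (-0.80, adjusted p = 5.4e-06). The serine pathway genes *PHGDH* (0.31) and *SHMT2* (0.23) rose. Outside these chromosomes 9 of 19 fell and 2 rose. Set against del-4, 24 of 27 members were lower in del-56 (88.9%, all genes 10.9%, well-expressed genes 13.7%) and none higher, with a median of -0.29. *SLC7A11*, the cystine importer, was lower by 0.81 on this scale (log2FC = -0.81), and *CHAC1*, which degrades glutathione, by a similar amount (log2FC = -0.80), although *CHAC1* did not differ measurably from WT (0.00, adjusted p = 0.99).

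Chaperones of the endoplasmic reticulum and genes of the unfolded protein response were lower in 16 of 31 cases and higher in 5, with a median of -0.13. *CREB3L4*, a membrane-bound transcription factor of the prostate epithelium, was at 6114 ± 217 against 10693 ± 571 (-0.81, adjusted p = 1.2e-09). *XBP1*, a transcription factor of this response, fell by 0.39 on the log2 scale and *AGR2*, a disulfide isomerase, by 0.45. *CRELD2* fell by 0.58 and *HERPUD1*, which lies on chromosome 16, by 0.57. *HSPA5*, the main chaperone of this compartment, did not pass, and *ERO1B* and *SEL1L* rose. When the shifted chromosomes were left out, 10 of 24 fell and 4 rose. The number that rose lay between 2 and 5 when single libraries were left out.

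**Figure D4:**
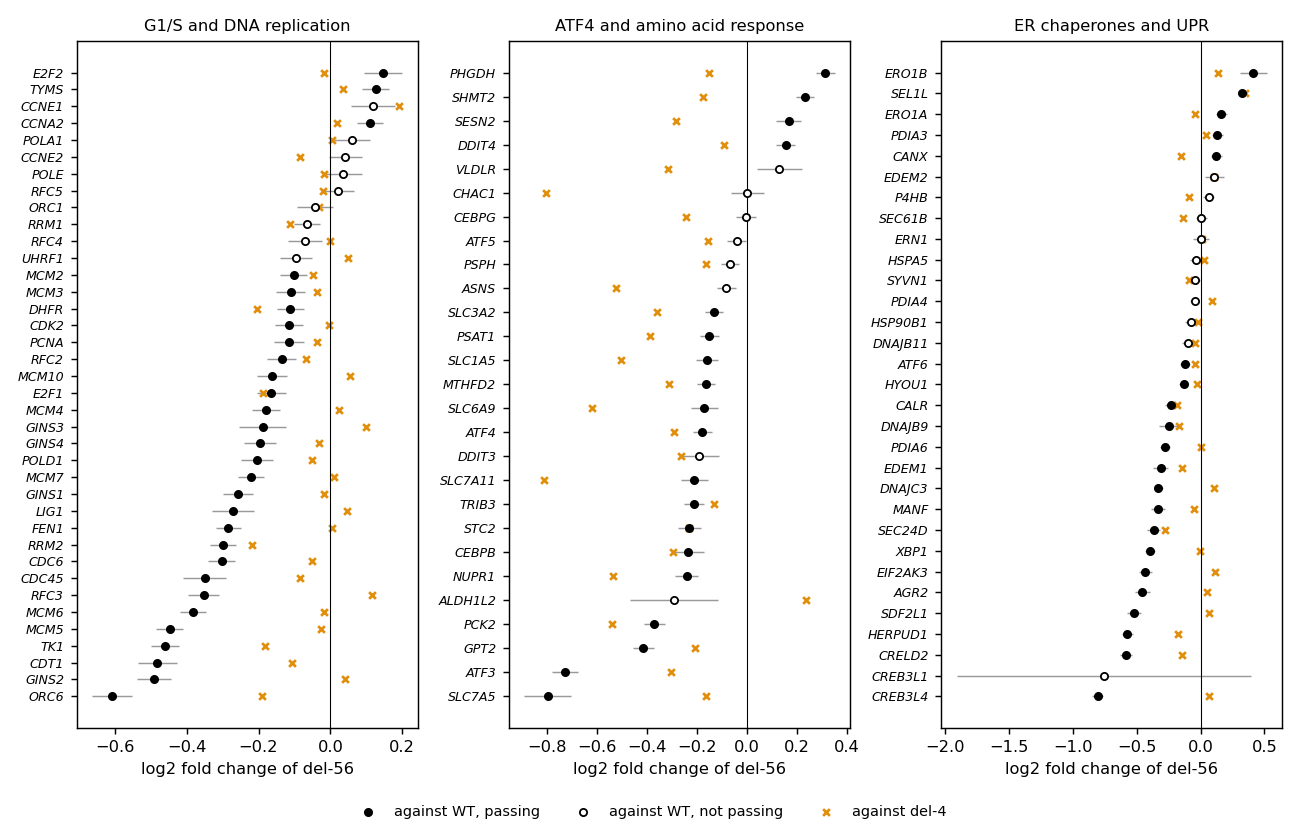
Log2 fold change of del-56 against WT (circles, bars are standard errors of the limma fit, filled where the adjusted p is under 0.05) for the tested members of 3 gene lists, with the log2 fold change of del-56 against del-4 as orange crosses. In the ATF4 list most crosses lie left of 0 and further left than the circles, whereas in the G1/S list most crosses lie near 0.

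Interferon-stimulated and antigen presentation genes were lower in 20 of 44 cases (45.5%) and higher in 5, with a median of -0.24. Against del-4 they were lower in 21 cases (47.7%, all genes 10.9%) and higher in 2. *IFITM2*, which blocks virus entry, was at 178, 93.4 and 143 in del-56, 1820, 1912 and 1661 in WT and 232 ± 34.3 in del-4 (log2FC against WT -3.74, adjusted p = 1.3e-10). *IFIH1*, a sensor of double-stranded RNA, was at 515 ± 46.0 against 878 ± 26.2 (-0.77), and *IFIT2* at 65.4 ± 18.1 against 148 ± 18.7 (-1.20). *IFITM3* rose by 0.36. *IFITM2* and *IFITM3* are near-identical neighbours and their reads may be shared. Off the shifted chromosomes 15 of 35 fell and 4 rose.

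In energy metabolism, 12 of 25 genes of glycolysis and lactate handling rose (48%) and 4 fell, with a median of 0.11. *ENO1*, enolase 1, was at 222420, 215396 and 220591 in del-56 and 162766, 158205 and 150017 in WT (0.48, adjusted p = 1.1e-06), and *MPC2*, a subunit of the mitochondrial pyruvate carrier, rose by 0.39. *ENO1* lies in the raised part of chromosome 1 and *MPC2* in the other part. Without the 4 chromosomes, 7 of 18 rose and 3 fell, and the number that rose was also 7 without del-56 replicate 3 and without WT replicate 3. Without del-56 replicate 2, 2 members fell. In the hypoxia list 11 of 22 rose and 3 fell (7 and 2 of 16 without the 4 chromosomes), with a median of 0.16. *NDRG1*, a stress-induced gene that androgen also raises, stood at 12376 ± 302 against 7539 ± 706 (0.72, adjusted p = 3.5e-08) and was higher than in del-4 (0.50). *VEGFA*, the vascular growth factor, rose by 0.25 and *SLC2A1*, the glucose transporter, by 0.35.

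Cholesterol synthesis and uptake genes were lower in 14 of 25 cases (56%) and higher in 2, with a median of -0.11. *STARD4*, a carrier of cholesterol (487 ± 35.3 against 759 ± 61.8), fell by 0.64 on the log2 scale, and *MVD* and *PMVK*, enzymes of the mevalonate pathway, by 0.34 and 0.35. *MVD* lies on chromosome 16, where the median log2FC of all tested genes was -0.31. Against del-4, 11 members were higher in del-56 (all genes 9%, well-expressed genes 10.2%) and 1 lower (4%, all genes 10.9%). Outside the shifted chromosomes 10 of 19 were lower than in WT and 2 higher. The number that rose was 1 without del-56 replicate 2 or 3 or WT replicate 2, and 4 without replicate 1 of both clones.

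Of 22 fatty acid synthesis genes, 9 fell and 6 rose, and 9 and 5 of 20 without the 4 chromosomes. The falls included the desaturase pair *FADS1* (12864 ± 319 against 26305 ± 780, -1.03) and *FADS2*, which are neighbours on chromosome 11, and the elongase *ELOVL6* (2760 ± 68.0 against 5761 ± 193, -1.06). In fatty acid oxidation 8 of 26 members rose and 8 fell (6 and 5 of 19). *PPARGC1A*, a coactivator of mitochondrial genes, was at 164, 120 and 173 in del-56, 37.7, 40.5 and 71.6 in WT and 27.1 ± 7.83 in del-4 (1.64 and 2.47, adjusted p = 0.00022 and 7.6e-06). *ACADL*, an acyl-CoA dehydrogenase, was at 344 ± 42.1 against 161 ± 28.8 in WT and 129 ± 16 in del-4.

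The prostate accumulates zinc and citrate, and 16 of 36 genes of the citrate cycle and zinc handling were lower in del-56, with 5 higher. *MT2A*, a metallothionein that binds zinc, was at 4869, 4564 and 4746 in del-56 and 13640, 16284 and 15802 in WT (-1.69, adjusted p = 2.3e-12), and *MT1X* was at 2690 ± 96.9 against 5628 ± 541 (-1.06). The metallothionein genes lie together on chromosome 16 and are alike in sequence. Of the 21 members on other chromosomes, 6 fell and 2 rose. In the NRF2 and glutathione list 15 of 34 fell and 10 rose, and 11 and 4 of 22 without the 4 chromosomes. *NQO1*, a quinone reductase gene on chromosome 16, was at 25203, 26314 and 26660 in del-56, 46625, 46344 and 45216 in WT and 45279 ± 3883 in del-4 (-0.82 and -0.79). The number that rose was 5 without del-56 replicate 3.

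Of 29 androgen response genes 13 rose (44.8%) and 9 fell. *KLK3*, which encodes prostate-specific antigen, was at 35098, 37905 and 38224 in del-56 and 46505, 52169 and 46717 in WT (-0.39, adjusted p = 1.1e-05), and its neighbour *KLK2* fell by 0.53 on the log2 scale. The cold-sensing channel gene *TRPM8* was at 5866 ± 105 against 2345 ± 7.85 (1.32). The groups did not overlap for any of these 3 genes. *FOLH1*, the gene of prostate-specific membrane antigen, was at 45949 ± 476 against 70462 ± 1977 (-0.62). Leaving the 4 chromosomes out gave 11 of 23 higher and 8 lower.

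In the list of steroid and glucuronidation enzymes, 16 of 33 members were lower (48.5%) and 6 higher, with a median of -0.21. Besides *UGT2B11*, *UGT2B10* was at 1037 ± 90.6 against 2843 ± 359 (-1.45) and *UGT2B28* at 1581 ± 337 against 2776 ± 54.3 (-0.84). The reductase gene *AKR1C2* was at 221, 285 and 240 in del-56, 906, 915 and 1002 in WT and 1039 ± 244 in del-4 (-1.92 and -2.04, adjusted p = 3.8e-09 and 1.7e-08). *UGT8*, a member of the list whose product adds galactose to ceramide and not to steroids, was at 125 ± 5.94 against 527 ± 5.53 (-2.07). The steroid synthesis genes *HSD3B1*, *HSD3B2* and *CYP17A1* were higher from low levels, *HSD3B1* at 102 ± 8.59 against 26.2 ± 7.48 (1.95). The UGT2B and the AKR1C genes each hold near-identical copies, so values of single members are uncertain. Without the 4 chromosomes, 14 of 26 fell and 3 rose.

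In PI3K, AKT and mTOR signalling, the pathway that the study asked about, 9 of 34 genes rose (26.5%) and 10 fell (29.4%), close to the shares among well-expressed genes. *PDCD4*, an inhibitor of translation initiation, was at 18612, 20531 and 20670 in del-56, 16759, 15934 and 16078 in WT and 20416 ± 84.6 in del-4 (0.29, SE 0.043, adjusted p = 5.5e-05). *DEPTOR*, an inhibitor of mTOR, was at 1394, 1347 and 1346 against 1281, 1019 and 1241 and did not pass (0.21, adjusted p = 0.055), but passed with edgeR, without WT replicate 1 (0.28) and without replicate 1 of both clones (0.26). *MLST8*, a subunit of both mTOR complexes on chromosome 16, was at 9544 ± 312 against 13851 ± 501 (-0.54), and *INPP4B*, a phosphatase of this pathway, at 2689 ± 145 against 1434 ± 94.8 (0.91) and 1615 ± 108 in del-4 (0.74). *SGK1*, a kinase related to AKT, was at 73.9 ± 16.4 against 168 ± 25.9 (-1.19). Without WT replicate 3 the number that rose was 5, and without the 4 chromosomes 6 of 26 rose and 6 fell.

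Junction genes of epithelia were called often, with 10 of 34 higher and 15 lower, and 9 and 10 of 26 without the 4 chromosomes. *NECTIN3*, an adhesion receptor, was at 1681, 1587 and 1443 in del-56 and 133, 90.7 and 98.0 in WT (3.88, adjusted p = 1e-11), and at 961 ± 19.1 in del-4. The desmoglein *DSG2* rose by 0.72 (54240 ± 746 against 33033 ± 841), while *CLDN3* fell as given above. Of 40 integrin and matrix genes 13 fell and 8 rose, and 7 and 4 of 27 without the 4 chromosomes. The number that rose was 5 without del-56 replicate 1. *FN1*, fibronectin, was at 14487 ± 1862 against 33568 ± 270 (-1.22, adjusted p = 5e-10), with -1.04 against del-4. *ITGA2*, the collagen receptor subunit, was at 290, 203 and 289 in del-56, 1078, 909 and 980 in WT and 881 ± 35.2 in del-4 (-1.94 and -1.77). *SDC2*, syndecan 2, was at 533 ± 47.6 against 1999 ± 28.9 (-1.91).

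Among receptor tyrosine kinases and their ligands 11 of 36 rose (30.6%) and 8 fell (22.2%), and 9 and 6 of 29 without the 4 chromosomes. Over all genes the shares were 19.2% and 20.5%, and among well-expressed genes 25.2% and 25.9%. *MET*, the receptor of hepatocyte growth factor, was at 111, 90.4 and 77.6 in del-56, 273, 263 and 280 in WT and 278 ± 19.0 in del-4 (-1.55 and -1.59, adjusted p = 7e-06 and 8.1e-06). *ERBB4* was at 63.9 ± 10.7 against 192 ± 17.6 (-1.58) and *FGFR2* at 198 ± 27.6 against 54.3 ± 9.87 (1.85). In the list of ERK feedback and immediate early genes 7 of 22 fell and 1 rose (5 and 1 of 19 without the 4 chromosomes), the latter being *SPRY1*, an inhibitor of receptor signalling (3752 ± 157 against 2042 ± 188, 0.88). Del-4 had more of it, at 7894 ± 415. *JAG1*, a Notch ligand, was at 9878, 9568 and 9419 in del-56, 4237, 4495 and 3929 in WT and 6208 ± 492 in del-4 (1.19 and 0.63), while the Notch targets *HES1* and *HES4* fell. In the Notch list 5 of 23 rose and 8 fell, but 5 and 5 of 19 without the 4 chromosomes. In the WNT list 11 of 34 rose and 6 fell (3 without WT replicate 2), and 9 and 4 of 26 without them. In the TGF-beta and BMP list 10 of 32 rose and 9 fell, but 8 and 4 of 22 without them. Of 28 genes of DNA methylation and Polycomb 8 rose (28.6%) and 9 fell (32.1%), close to the shares among well-expressed genes, and 7 and 7 of 23 without them. *DNMT3A*, a DNA methyltransferase, was at 1771 ± 82.5 in del-56, 2441 ± 125 in WT and 3204 ± 79.7 in del-4 (-0.46 and -0.86). *DNMT3B*, of the same list, rose against WT (1511 ± 67.7 against 1122 ± 57.2, 0.43, adjusted p = 0.00015).

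The medians of some chromosomes were shifted in del-56. The median log2FC of the 791 tested genes of chromosome 16 was -0.31 and 86.7% of them lay below 0, with medians of -0.31 to -0.30 in the single del-56 libraries and -0.02 to 0.01 in WT. Chromosomes 2 (-0.16) and 13 (-0.16) were lower and chromosome 1 (0.12) higher, and the medians of the other chromosomes lay between -0.07 and 0.08. In bins of 10000000 bases with at least 20 tested genes, 3 of 271 had a median above 0.25, all on chromosome 1, and 14 lay below -0.25. Chromosome 1 was not shifted as a whole: its bins up to position 120000000 had medians of 0.03 to 0.32, while those from 140000001 on had medians of -0.14 to 0.03. On chromosomes 2, 13 and 16 all bins lay below 0. The lowest bin (-0.48, 20 genes) was on chromosome 4, from 60000001 to 70000000, and 7 of the 14 lay on chromosome 16. Copy number was not measured in these libraries.

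**Figure D5:**
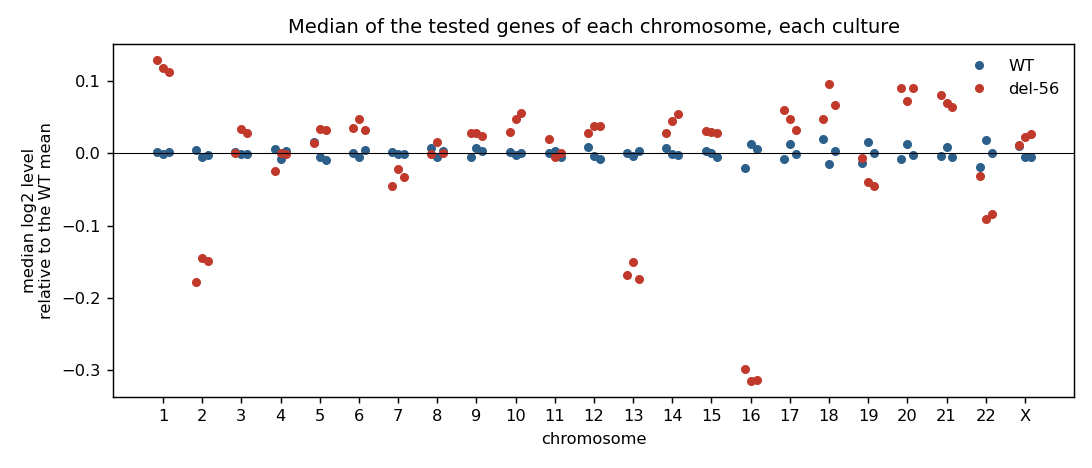
Median over the tested genes of each chromosome (x axis) of the log2 level relative to the WT mean (y axis, log2 scale), for each of the 3 WT (blue) and 3 del-56 (red) libraries. The 3 del-56 libraries lie together near -0.31 on chromosome 16 and near 0.12 on chromosome 1, away from all WT libraries.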

How the data were processed

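RNA-seq libraries of 3 del-56 and 3 WT cultures were compared, and 3 del-4 libraries were used for a direct test. The authors trimmed reads and aligned them to GRCh38 with STAR 2.71a, used bedtools 2.27.1 (multicov) to count reads per protein-coding gene in GENCODE version 38, and divided the counts by DESeq2 size factors. The deposited signal values are therefore normalized counts. Whole reads were recovered in all libraries (100% of values, relative tolerance 1e-06). Both mates are counted (81.5% to 85.1% of values from 1 to 20 reads were even), so a floor of 3 reads is near 1 fragment. Floors cover counting error only. Whether counting used the strand was not given in the sources used here. Of 19984 genes, 19905 were matched to symbols in GENCODE version 44. The members and gene lists were chosen with earlier results of these data known.

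Normalized counts were tested with limma 3.58.1 in R 4.3.3 (lmFit, eBayes with trend) on log2(normalized count + 1), for genes with a mean of at least 1, with Benjamini-Hochberg adjustment over all genes tested. A fold change on this scale understates low genes. Named genes were the 12 largest rises and falls by log2FC with a mean of at least 1000, and the 5 largest rises and falls by count. Both rules took only genes with no overlap of libraries and an adjusted p under 0.05. To these came the 3 most changed members of each list with a mean of at least 100, together with preset members. The 8 highest and 8 lowest against del-4 also had to differ from WT in the same direction, with no overlap with either clone. The 6 most abundant lost genes were added. Other list members were named after their values were seen. Alternatives were other pseudocounts, filters and scalings, a fit of all libraries, a replicate block, leaving out each library, and count tests on recovered reads with edgeR 4.0.16 and DESeq2 1.42.0. The limma script was tested on simulated data. Cultures are described as biological replicates of 1 clone each, so p-values measure the spread between cultures, not between clones. A few genes of the lists are not reported here.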

Additional observations from a re-analysis of the deposited data

How the results depend on the processing

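The counts of genes higher and lower in del-56 than in WT stayed within 1.5 times of the reported counts under all alternatives run. They ranged from 2738 to 3589 higher and from 2954 to 4005 lower, edgeR on recovered reads gave 3418 and 3525, and DESeq2 3369 and 3508. Across genes, replicate numbers showed no pairing: the deviations of same-numbered del-56 and WT libraries correlated at -0.12, -0.03 and -0.05. The share of reads on mitochondrially encoded genes was nevertheless highest in replicate 1 of both clones (1.41% in del-56, 1.37% in WT). The permutation tests of read shares ignored replicate numbers, and a pairing of these shares was not tested. With the replicate number as a block, 2868 genes were higher and 3167 lower, and *EEF1A1*, *EEF2* and *RPS2* lost their calls, and the members that rose in the glycolysis list numbered 7 instead of 12. Of 148 named genes, 6 lost or gained a call under some alternative (among them *EEF1A1*, *EEF2*, *RPS2*, *POU4F1* and *DEPTOR*) and none turned. The counts against del-4 were less stable: 2381 genes were higher after rescaling to the same total, and leaving out single libraries gave 1021 (without del-4 replicate 3) to 1510 higher and 1245 (without del-4 replicate 1) to 2027 lower, with 1247 lower without del-4 replicate 3. Without replicate 1 of both clones, an alternative chosen after seeing the data, 1019 were higher. With a floor of 10 reads per library, 26 genes were lost and 1 gained, and with a mean of at least 1000 in WT, 2 were lost. The lists without chromosomes 1, 2, 13 and 16 were also chosen after seeing the data. Medians were less stable than counts: over all lists and alternatives, 185 list medians were labelled as moved and 461 as the same. For chromosome results 27 were labelled as moved and 19 as the same. Under quantile normalization the medians of chromosomes 16, 2, 13 and 1 kept their direction, at -0.29, -0.15, -0.14 and 0.14. With 3 cultures of 1 clone per group, differences near 0 in low genes were not detectable, and clonal differences cannot be told apart from the deletion.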
